A study of Mus musculus with 4 samples.

Results

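The Wnt ligands, their frizzled receptors and the secreted antagonists of the Dickkopf (Dkk) and secreted frizzled-related (Sfrp) families were examined in mouse cells from lymphatic vessels that drained a tumour. Members were every gene whose symbol consists of Wnt, Fzd, Dkk or Sfrp, a number and, where present, the letter a or b. The rule found 37 of the 18193 named genes on the array, with 73 probe sets between them. They were 19 ligands, 10 receptors, 4 Dkk genes and 4 Sfrp genes. RNA came from 4 Affymetrix arrays, 2 per group. In the Apex group, mice carried flank xenografts of 293EBNA cells, a line of human embryonic kidney origin, with the empty APEX vector. In the VEGFD group the same cells carried that vector with VEGFD, which encodes vascular endothelial growth factor D, a lymphatic growth factor. In both groups the tumours had been grown to 2000 mm3, dye injected into the tumour marked the draining vessels, and magnetic sorting took the cells labelled as collecting lymphatic endothelium. The extraction protocol speaks of lymph node endothelium instead, so the labels disagree on which cells gave the RNA. They give neither mouse strain nor age, and do not say whether an array held 1 animal or several. The replicates are named biological, but where they share an animal or a sort the p-values measure only the spread between these samples.

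Wnts are lipid-modified secreted proteins that bind frizzleds, receptors that cross the membrane repeatedly. With an LRP co-receptor, frizzleds stabilise beta-catenin, which then acts with TCF and LEF factors on target genes, while other Wnts, such as the Wnt5a product, signal mainly without beta-catenin. Sfrp proteins carry a frizzled-like domain and bind Wnts outside the cell, and most Dkk proteins block the LRP co-receptor. In lymphatic vessels, Wnt signalling is known for its part in valve formation and vessel growth.

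Endothelial markers were uneven across the arrays. Pecam1, Cdh5 and Erg, 3 genes that define endothelium, exceeded the reference level described in the next paragraph on Apex replicate 2 and on no other array. Kdr (78.8, 75.7, 90.8 and 55.4) and Egfl7 exceeded it on every array, and Tek and Emcn on 3. The summed signal of 10 pan-endothelial markers was 339 and 3580 on the Apex arrays and 363 and 195 on the VEGFD arrays, and Emcn gave 2670 of the 3580. The lymphatic factor gene Prox1 had signals of 11.2, 11.6, 3.19 and 5.94, below that level on every array, while Pdpn (963, 1622, 1237 and 1715), Flt4 and Nrp2 exceeded it on every array, 3 of 7 lymphatic markers. The sum of 9 fibroblast markers was 19433 and 17600 against 17293 and 17978. Smooth muscle and pericyte markers, 9 in all, summed to 7615 and 8857 against 9373 and 18565, and 5 adipocyte markers to 2001 and 4517 against 1164 and 1227. Acta2 (3525, 4096, 4840 and 8802) was the largest part of the muscle sum. Myh11 (17.2, 11.8, 16.3 and 19.2) was below the reference level on every array. Fabp4 (1741, 4073, 1098 and 1047) gave most of the adipocyte sum, while Lep and Cidec were below that level on every array. Arrays are called by their labels, whatever cells they held. In RNA from many cells, fewer cells of a type and less RNA per cell cannot be told apart. Without Apex replicate 2, the count of members at least 2-fold apart without overlap was 3, as on all 4 arrays, with Wnt11 in place of Wnt5a.

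Where 4 signals follow a gene, they are linear intensities, with the Apex pair (replicates 1 and 2) first and the VEGFD pair (replicates 1 and 2) after it, from the probe set with the highest mean signal of each gene. As a reference for background, the 95th percentile of signal was taken on each array over 69 olfactory and vomeronasal receptor genes, which are not expected in these cells. It was 32.0, 38.9, 30.2 and 31.6. Of the 37 members, 16 exceeded it on every array, 8 on some arrays and 13 on none. Over all genes, 52.4% exceeded it on every array and 32.2% on none.

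Ligands, receptors and antagonists are given apart. Among receptors, 8 of 10 exceeded the reference on every array, and Fzd9 did so on none. Among ligands the count was 5 of 19 (Wnt2, Wnt5a, Wnt6, Wnt7b and Wnt9a), and 10 exceeded it on none. Those 10 were Wnt1, Wnt2b, Wnt3, Wnt3a, Wnt5b, Wnt8a, Wnt8b, Wnt9b, Wnt10b and Wnt16. Wnt4, Wnt7a, Wnt10a and Wnt11 exceeded it on some arrays, as did Fzd10 among receptors. Of the antagonists, Dkk3, Sfrp1 and Sfrp4 exceeded the reference on every array, and Dkk1 and Dkk4 on none. Dkk2, Sfrp2 and Sfrp5 did so on some arrays. The 13 members that never exceeded it had signals from 0.749 to 36.5. The number of members above the reference was 20, 21, 20 and 21 on the 4 arrays. A low signal can also come from a weak probe set.

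**Figure D1:**
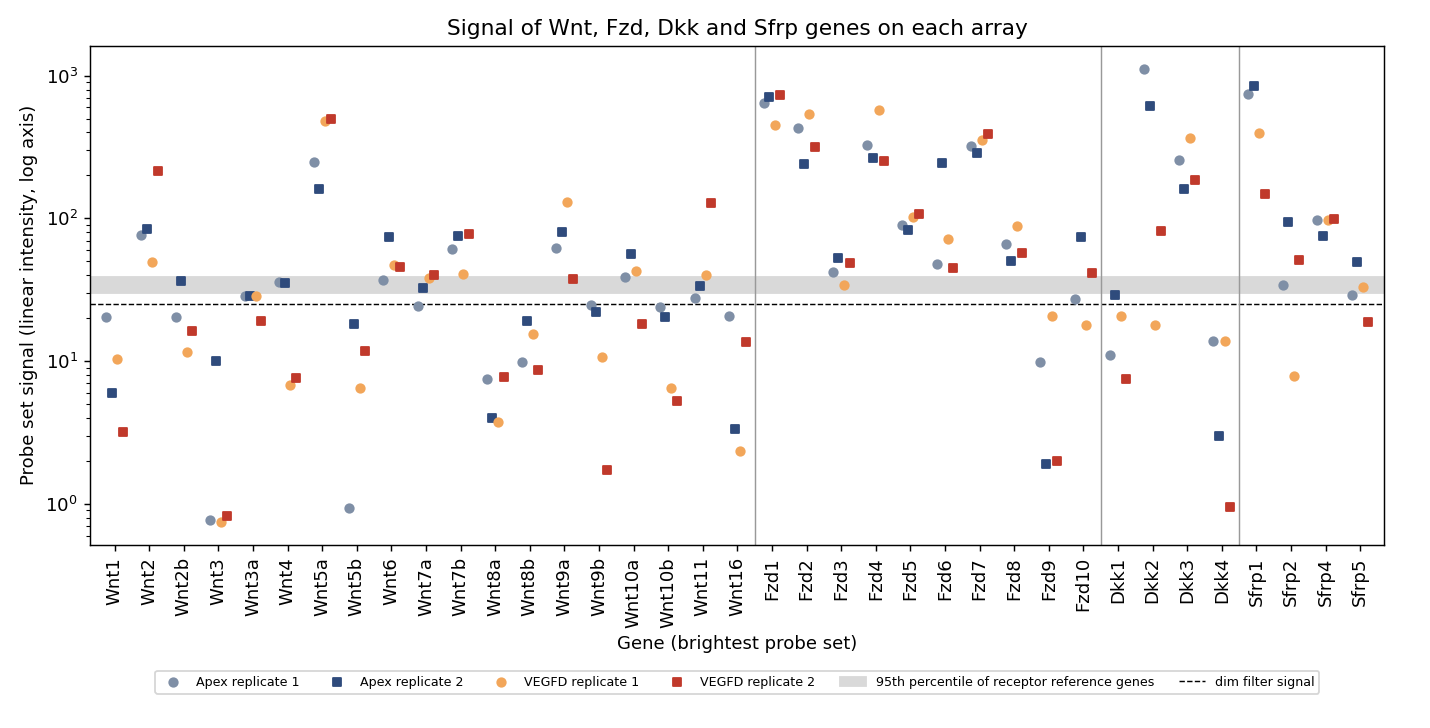
Signal of all 37 members on each array (log axis), with ligands, receptors, Dkk and Sfrp genes from left to right. The grey band spans the reference level of the 4 arrays, 30.2 to 38.9, and the dashed line is the filter signal of 25.3. Receptors lie mostly above the band and many ligands below it, and Dkk2 and Sfrp1 show both Apex points above both VEGFD points.

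For the comparison of VEGFD with Apex arrays, genes were kept when their mean on the log2(signal + 16) scale reached the median of all probe sets, a signal of 25.3. Of all genes 64.2% were kept, and of the members 24 of 37. Each log2 change gives the VEGFD mean minus the Apex mean on that scale (n = 2 and 2), ± its standard error (SE) from limma, and understates changes of dim genes. No member passed an adjusted p of 0.05 in limma with Benjamini-Hochberg adjustment over 11677 genes, and 0% of all genes tested did. At an unadjusted p below 0.05 there were 3 members, Dkk2, Sfrp1 and Wnt5a, while 5.7% of all genes lay there. The same 3 were at least 2-fold apart with no overlap between groups, 1 higher and 2 lower in VEGFD arrays. That is 12.5% of the kept members, beside 3.88% of all genes tested (1.09% higher and 2.79% lower). The groups did not overlap for 8 of 24 members, 33.3%, against 38.5% of all genes, so this looser count lay near the background. Of those 8 members 6 were higher and 2 lower, where 16.6% and 21.8% of all genes were. Of the kept members, 12 were higher and 12 lower, where 53.6% of all genes were lower, with a median log2 change of -0.059, beside -0.035 over all genes.

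The members differed more between the VEGFD arrays than between the Apex arrays. The median gap between replicates was 0.30 for Apex and 0.71 for VEGFD on the log2 scale, against 0.25 and 0.35 over all genes kept. VEGFD replicate 2 held the highest value of 9 members and the lowest of 7. Over all genes kept these shares were 29.6% and 35.5%.

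**Figure D2:**
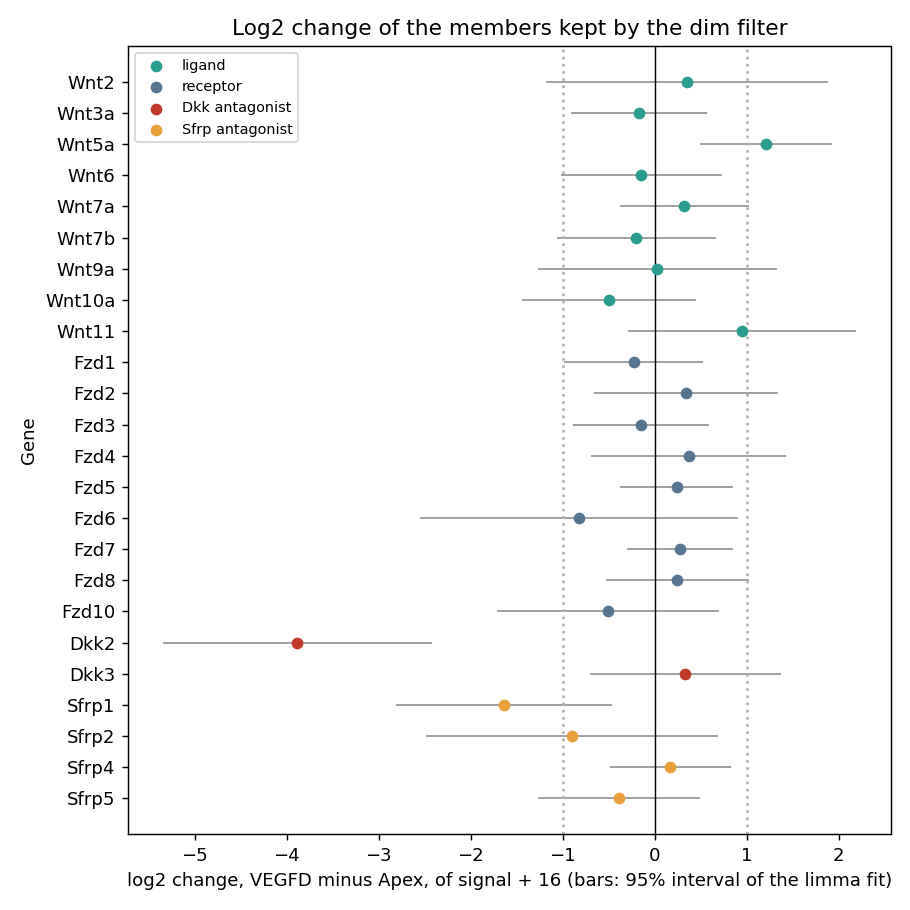
Log2 change of the 24 kept members, the VEGFD mean less the Apex mean of log2(signal + 16), with 95% intervals from limma (n = 2 and 2) and the class of each gene in colour. Dotted lines mark a 2-fold difference. Wnt5a, Dkk2 and Sfrp1 lie beyond them with intervals that do not reach 0, before any adjustment for the number of genes.

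Among the ligands, Wnt5a, whose product acts in cell polarity and migration, had signals of 250, 161, 478 and 495. Both VEGFD arrays were above both Apex arrays and close to each other. The log2 change was 1.21 ± 0.28 (SE; 95% interval 0.49 to 1.93), about 2.32-fold, with a limma adjusted p of 0.782. All 4 Wnt5a probe sets were above the filter and higher on average in VEGFD arrays. The second had signals of 147, 132, 467 and 400, the third 27.4, 40.9, 149 and 116, and the fourth 19.5, 26.9, 37.8 and 20.7. In the first 3 of them the groups did not overlap, and in the dimmest they did. Probe sets of a gene read the same RNA and are not replicates. The Wnt5a value ran from 0.92 to 1.51 with 1 array left out, and was 0.92 without Apex replicate 2. The summed smooth muscle and pericyte signal was also higher in both VEGFD arrays. Of 8 kept markers of that list 5 were higher, among them Tagln (454, 746, 1632 and 5553), and 3 lower, among them the pericyte gene Pdgfrb (2978, 3479, 2123 and 1268). Their part in the Wnt5a difference was not tested.

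Wnt11, which acts in cell movement largely without beta-catenin, had signals of 27.5, 33.5, 39.9 and 127. The groups did not overlap, but VEGFD replicate 2 stood far above the other 3 arrays. Both Apex signals were below the reference. The log2 change was 0.95 ± 0.49 (SE), and 0.27 without VEGFD replicate 2. Wnt2, a ligand that acts through beta-catenin, showed the same array highest, with signals of 76.4, 84.5, 49.3 and 215. Its VEGFD arrays lay on either side of the Apex arrays, and the log2 change of 0.35 ± 0.61 was -0.56 without VEGFD replicate 2. That array also had the highest sum of smooth muscle and pericyte markers, with Acta2 at 8802 and Myh11 at 19.2, below the reference. The part of such cells in the Wnt2 and Wnt11 signals was not tested.

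Other kept ligands had smaller differences than Wnt5a and Wnt11. Wnt7a signals were 24.3, 32.4, 38.4 and 40.0, without overlap and 0.32 ± 0.28 apart on the log2 scale. Both Apex signals of Wnt7a were below the reference. Its other probe sets, below the filter, had log2 changes of 0.28 and -0.28. Wnt9a had signals of 62.4, 79.9, 130 and 37.5, so that the VEGFD arrays were the extremes and their mean differed from Apex by 0.028 ± 0.51. Wnt6 signals were 37.3, 74.7, 47.5 and 46.0, and those of Wnt7b 61.2, 75.5, 40.9 and 78.2. In both genes the groups overlapped, with log2 changes of -0.15 ± 0.35 and -0.20 ± 0.34. Wnt10a, a ligand known from skin and hair, had signals of 38.9, 56.7, 42.5 and 18.2 (-0.50 ± 0.38), with VEGFD replicate 2 lowest. Wnt3a, a widely used activator of beta-catenin, had 28.7, 28.5, 28.5 and 19.0, below the reference on every array.

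Below the filter were 10 ligands, Fzd9, Dkk1 and Dkk4, 13 members in all, with signals from 0.749 to 36.5. Wnt4, the ligand that drives female reproductive tract development, was the 1 member of these to exceed the reference on any array, and did so on Apex replicate 1. Its signals were 35.8, 35.1, 6.78 and 7.65, so that the Apex arrays agreed closely and the VEGFD arrays were lower. The second Wnt4 probe set did not repeat the order, with 3.51, 20.4, 16.4 and 5.42. Groups did not overlap for 4 of the 13, each lower in VEGFD arrays: Wnt4, Wnt2b, Wnt9b and Wnt10b. Of all 6516 genes below the filter, 24% were lower without overlap. No fold is given for them, since their VEGFD signals were all below the reference.

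None of the receptors reached a 2-fold difference without overlap. With 2 arrays per group some 95% intervals were wide, such as -2.55 to 0.91 for Fzd6 and -1.71 to 0.70 for Fzd10. Of 9 kept frizzleds, 5 were higher and 4 lower, with a median log2 change of 0.24 and a range from -0.82 to 0.37. Fzd7, a receptor for beta-catenin signalling in many stem cells, had signals of 323, 285, 354 and 388. Fzd5 had 89.3, 83.2, 102 and 107. In these 2 genes both VEGFD arrays were the higher, by a log2 change of 0.27 ± 0.23 and 0.24 ± 0.24, with 95% intervals from -0.30 to 0.85 and from -0.37 to 0.85.

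Fzd4, the vascular receptor for the ligand norrin, had signals of 329, 263, 577 and 254. VEGFD replicate 1 alone was high, and the log2 change of 0.37 ± 0.42 was -0.20 without it. Its 2 other probe sets also had their highest signal on that array, at 191 and 21.5. Fzd2 signals were 433, 241, 537 and 319, and those of Fzd8 65.8, 50.4, 87.9 and 57.6. Both receptors were highest on VEGFD replicate 1 and lowest on Apex replicate 2, with overlapping groups and log2 changes of 0.34 ± 0.40 and 0.25 ± 0.31. The third Fzd2 probe set had a log2 change of -0.32, opposite to the other 2.

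Fzd1 had signals of 645, 706, 449 and 733 (-0.23 ± 0.30), with VEGFD replicate 1 the lowest. The other Fzd1 probe set, also above the filter, had a log2 change of 0.20, opposite in sign. Fzd3, which acts in axon guidance and tissue polarity, had 42.2, 52.6, 34.1 and 49.0 (-0.15 ± 0.29), and its 6 probe sets did not share a direction. Fzd6, a polarity receptor that orients hair follicles, had 47.9, 245, 71.6 and 45.0. Apex replicate 2, the array with the high endothelial markers, stood alone. The log2 change was -0.82 ± 0.69, and 0.19 without that array. Fzd10 was also highest there, with signals of 27.4, 74.5, 17.9 and 41.6 (-0.50 ± 0.48), and its log2 change was 0.026 without that array. The other Fzd6 probe sets, both below the filter, were highest on VEGFD replicate 1 instead, at 29.7 and 21.2. The other Fzd10 probe set had signals of at most 1.70. The part of endothelial cells in the Fzd6 and Fzd10 signals was not tested.

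The difference of greatest size among the kept members was that of an antagonist gene. Dkk2, whose product binds the LRP co-receptor and blocks or modulates beta-catenin signalling, had signals of 1121, 617, 17.8 and 81.5. Both Apex arrays were far above both VEGFD arrays, and VEGFD replicate 1 lay below the reference while VEGFD replicate 2 lay above it. The log2 change was -3.89 ± 0.58 (SE; 95% interval -5.35 to -2.42). It was -4.40 with a pseudocount of 1 and -3.04 with 64, so its size depends on the pseudocount and no fold is given. The limma adjusted p was 0.511 (unadjusted p = 0.000855), the 15th smallest p of 11677 genes, and over the alternatives the adjusted p ran from 0.0114 to 0.999. With 1 array left out the log2 change ran from -4.65 to -3.12. It passed without VEGFD replicate 1 (-3.12, limma adjusted p = 0.0114) and without VEGFD replicate 2 (-4.65, 0.0212), fits that hold no variation between VEGFD arrays. The array has 1 Dkk2 probe set, so no second probe set bears on this value. The adipocyte sum, mostly Fabp4, and the epithelial sum were also lower in both VEGFD arrays, while the fibroblast sums of the groups overlapped. Of 5 kept epithelial markers 1 was higher and 4 lower. Of 7 kept fibroblast markers 4 were higher and 3 lower. Dpt, a matrix gene and the only 1 of the 7 without overlap, had 2725, 2407, 204 and 168. The part of adipocytes, epithelial cells and fibroblasts in the Dkk2 difference was not tested.

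The promoter window of Dkk2 is shown because this gene had the greatest difference of the kept members, and because TCF and LEF factors carry beta-catenin signalling to DNA. The window runs from 250 bases before to 50 after the RefSeq start, chr3:132085042-132085341, plus strand of GRCm38.p6. Capitals mark CTTTGT, a core TCF/LEF motif, and TATAAA, the TATA box motif.
Dkk2: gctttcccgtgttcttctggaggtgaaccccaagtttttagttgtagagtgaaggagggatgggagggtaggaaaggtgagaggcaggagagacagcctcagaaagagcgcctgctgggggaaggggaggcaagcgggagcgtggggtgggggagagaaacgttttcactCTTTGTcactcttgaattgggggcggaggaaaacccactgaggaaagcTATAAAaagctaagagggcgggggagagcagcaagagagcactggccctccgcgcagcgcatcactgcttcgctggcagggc
The search used CTTTGA and CTTTGT on both strands and TATAAA on the strand of the gene, and these motifs do not overlap in the window. CTTTGT began at base 171 of the window and TATAAA at base 219. CTTTGA or CTTTGT occurs in 31.2% of 32851 promoter windows of the same length, and TATAAA in 8.32%. Of 25 members with a window in the table, 8 had a CTTTGA or CTTTGT match and 4 a TATAAA match. A match describes letters only.

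Dkk3, a divergent family member that is not known as a strong LRP blocker, had signals of 258, 162, 369 and 184. The groups overlapped, and VEGFD replicate 1 was highest. Its log2 change was 0.33 ± 0.41 and that of its other probe set -0.27. The 95% interval of the Dkk3 change was -0.71 to 1.37. Dkk1, a strong LRP blocker, had signals of 11.1, 29.2, 20.9 and 7.49, and Dkk4 13.9, 2.99, 13.9 and 0.953. Both were below the reference on every array.

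Of the Sfrp genes, Sfrp1, which encodes a Wnt-binding antagonist common in stromal cells, had signals of 748, 840, 399 and 147. Both Apex arrays were above both VEGFD arrays, and VEGFD replicate 2 was the lowest. The log2 change was -1.64 ± 0.47 (SE; 95% interval -2.81 to -0.46), 3.11-fold more in Apex arrays, with a limma adjusted p of 0.823. All 5 probe sets had the same order of arrays, with log2 changes from -1.66 to -1.16 and no overlap. The Sfrp1 value rested in part on VEGFD replicate 2. It was -0.96 without that array, no longer 2-fold, and -2.31 without VEGFD replicate 1, where it passed (limma adjusted p = 0.0109) in a fit that holds no variation between VEGFD arrays.

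Sfrp2, another Wnt-binding antagonist of stromal cells, had signals of 34.4, 94.7, 7.84 and 50.9, with overlapping groups and a log2 change of -0.90 ± 0.63. It was -0.16 without VEGFD replicate 1 and -0.34 without Apex replicate 2. Leaving out VEGFD replicate 2 gave -1.65, and leaving out Apex replicate 1 gave -1.47, and in these 2 cases it was 2-fold apart without overlap. Sfrp4 had signals of 97.3, 74.9, 97.6 and 98.4 (0.17 ± 0.26), with 3 arrays nearly equal. Sfrp5, known from fat tissue as a Wnt5a antagonist, had 29.2, 49.3, 33.3 and 18.8, with overlapping groups (-0.39 ± 0.35). Over both antagonist families, 2 of 6 kept genes were higher and 4 lower in VEGFD arrays, where 53.6% of all genes were lower. The median log2 change was -0.65, beside -0.035 over all genes.

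**Figure D3:**
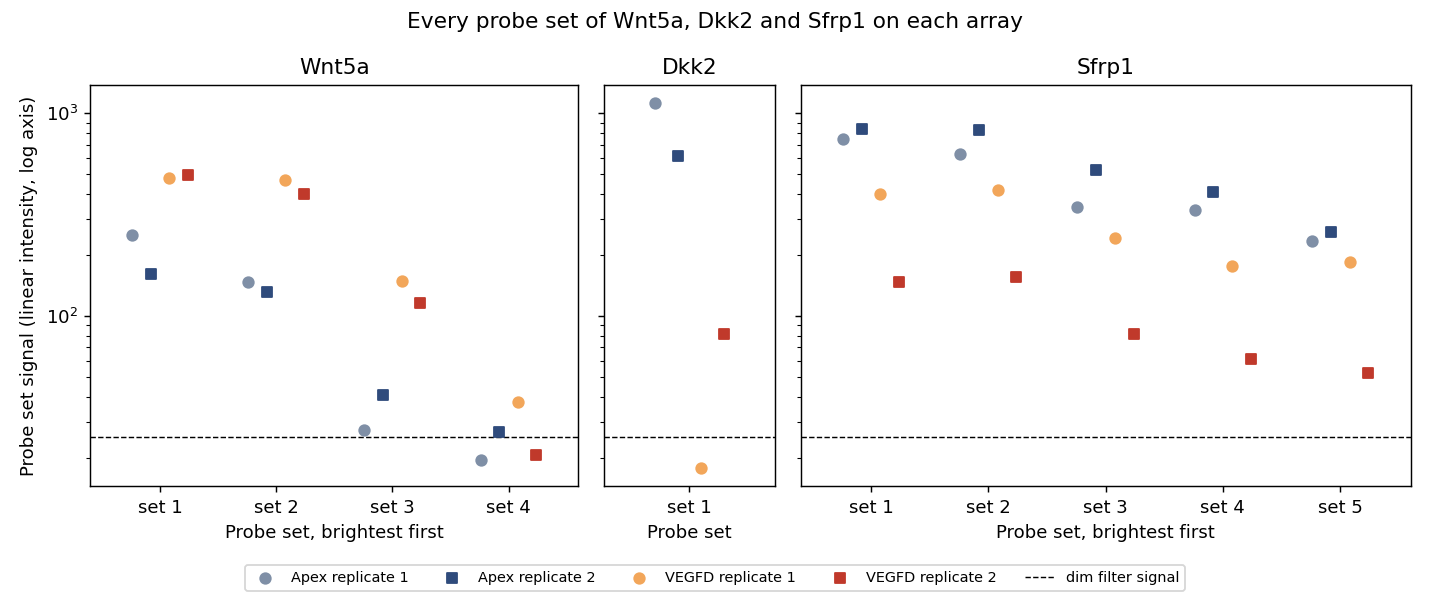
Signal of every probe set of Wnt5a, Dkk2 and Sfrp1 on the 4 arrays (log axis), brightest probe set first. Wnt5a has VEGFD points above Apex points in its first 3 probe sets, Dkk2 has a single probe set, and all 5 Sfrp1 probe sets have Apex replicate 2 highest and VEGFD replicate 2 lowest.

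Other genes of the pathway were taken from 6 lists with 57 genes named on the array, of which 41 were kept. None passed (limma, smallest adjusted p = 0.782), and 5 had an unadjusted p below 0.05, where 5.7% of all genes did. Of the 41, 15 were higher and 26 lower in VEGFD arrays, where 53.6% of all genes were lower, with a median log2 change of -0.11. A 2-fold difference without overlap was found for 6 genes, 14.6% of those kept, 1 of them higher and 5 lower, beside 3.88% of all genes (1.09% higher and 2.79% lower). That count was 1 with probe sets averaged, with a pseudocount of 64 and with a stricter filter, and 10 with a pseudocount of 1.

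In Wnt release and reception, 5 of 6 kept genes were higher and 1 lower, where 53.6% of all genes were lower. Only Ror1, higher, and Lrp6, lower, were without overlap. Of all genes 16.6% were higher and 21.8% lower without overlap. Ror1, which encodes a receptor for the Wnt5a product, had signals of 386, 162, 734 and 388 (log2 change 1.04 ± 0.50, SE). Apex replicate 1 and VEGFD replicate 2 were almost equal, and without Apex replicate 2 the value was 0.45. All 3 Ror1 probe sets had higher VEGFD means. Ror2, on the same list, had 41.8, 31.4, 25.7 and 87.6 (0.33 ± 0.49), so that the VEGFD arrays were the extremes. Wls, whose product carries Wnts to the cell surface, had 1784, 1189, 2531 and 1659, with overlapping groups, and the co-receptor gene Lrp6 had 249, 315, 227 and 207 (-0.35 ± 0.25).

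In the list of further antagonists all 4 kept genes had negative log2 changes, where 53.6% of all genes were lower. Those of Kremen1 (-0.12) and Draxin (-0.0082) were small, with overlapping groups. Frzb, an Sfrp relative outside the symbol rule, had signals of 44.9, 160, 34.4 and 31.0 (-1.09 ± 0.53). Apex replicate 2 stood apart, and without it the value was -0.32. With probe sets averaged it was -0.46. No kept gene of the R-spondin list was 2-fold apart without overlap. Rspo2, an R-spondin gene below the filter, had 37.1, 54.6, 5.89 and 18.3, with both Apex arrays the higher. Lgr5, an R-spondin receptor, had 4.94, 32.8, 43.0 and 43.7 (0.89 ± 0.46), and 0.28 without Apex replicate 1. Its relative Lgr6 had 57.9, 74.6, 37.7 and 50.8 (-0.45 ± 0.29).

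The largest pathway values belonged to nuclear factors. Tcf7l1, mainly a repressor of Wnt target genes, had signals of 208, 288, 86.1 and 29.2 (-1.94 ± 0.45). Tcf7l2, a main partner of beta-catenin, had 142, 179, 74.3 and 29.9 (-1.45 ± 0.39). In both genes the arrays stood in the same order as for Sfrp1, with VEGFD replicate 2 lowest. The second Tcf7l1 probe set (-1.69) and the 3 others of Tcf7l2 (-0.94 to -0.49) were also lower on average. Without VEGFD replicate 2 Tcf7l2 was -0.96, and averaged over its probe sets -0.93. Without VEGFD replicate 1 Tcf7l1 was -2.53 (limma adjusted p = 0.0149) and Tcf7l2 -1.93 (0.0319), passes in a fit that holds no variation between VEGFD arrays. Ctnnb1, which encodes beta-catenin, had 3841, 4776, 4283 and 4036 (-0.043 ± 0.21). Of the 13 kept transducers 4 were higher and 9 lower, where 53.6% of all genes were lower. Without overlap 4 of the 13 were lower, beside 21.8% of all genes.

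Among feedback targets, 1 of 5 kept genes was higher and 4 lower, 3 of them without overlap. Of all genes 53.6% were lower, and 21.8% lower without overlap. Nkd1, an inhibitor induced by the pathway, had signals of 58.1, 59.5, 5.22 and 43.9 (-1.07 ± 0.53). It was low mainly on VEGFD replicate 1, at -0.32 without it, and its other 3 probe sets had log2 changes from -0.076 to 0.50. Axin2, the most widely used readout of beta-catenin activity, had 43.3, 31.4, 8.75 and 45.7, so that the VEGFD arrays were the extremes (-0.44 ± 0.49). Also lower without overlap were Nkd2, with 124, 89.6, 48.3 and 46.6 (-0.94 ± 0.28), and Ccnd1 (-0.50 ± 0.23). Myc was higher (0.17 ± 0.24), with overlapping groups. Of 8 kept planar polarity genes 7 were lower, where 53.6% of all genes were. Without overlap 3 of the 8 were lower, beside 21.8% of all genes. Prickle1, a core polarity gene, had 150, 136, 73.0 and 51.2 (-1.04 ± 0.27), and -0.55 with probe sets averaged.

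**Figure D4:**
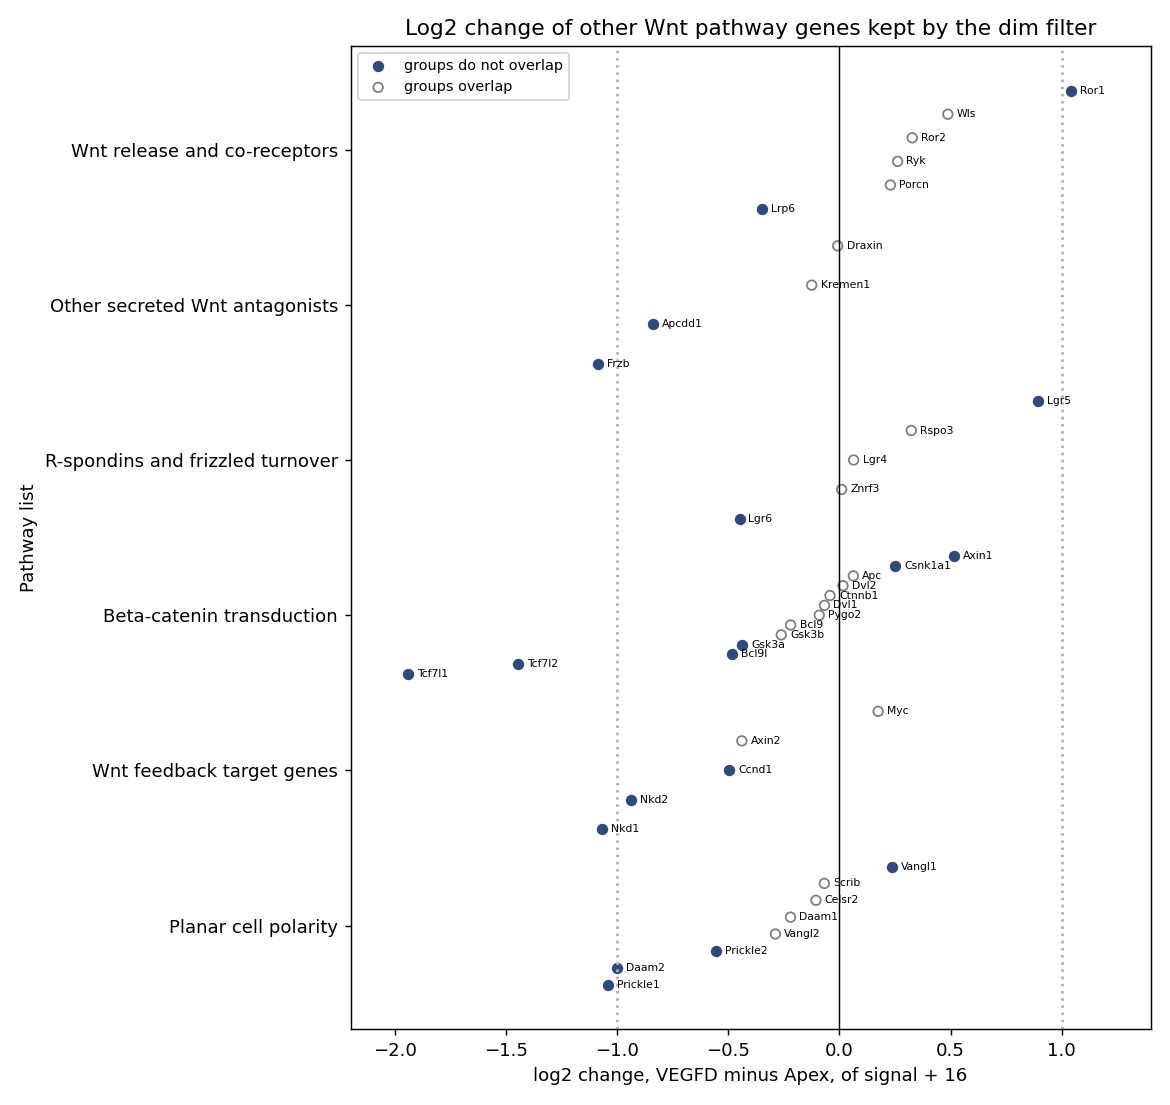
Log2 change of the 41 other pathway genes that were kept, as the VEGFD mean less the Apex mean of log2(signal + 16), by list. Filled points are genes whose groups do not overlap, and dotted lines mark a 2-fold difference. Ror1 lies beyond the line on the right, and Tcf7l1, Tcf7l2, Frzb, Nkd1 and Prickle1 lie beyond the line on the left.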

How the data were processed

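Per the labels, the RNA was biotin-labelled and hybridised to Affymetrix arrays, and the deposited table holds an intensity on a linear scale for each probe set. The algorithm was not given in the sources used here. Each array had a mean of 150 after trimming 2% of 45101 probe sets at each end. No detection calls were used. The platform annotation gave 34945 probe sets 1 symbol, 932 several and 9160 none here, and 64 were controls. All 37 members matched the RefSeq gene table of GRCm38.p6 by gene ID. Sequences are RefSeq's.

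Groups came from the titles. Values were log2(signal + 16). VEGFD and Apex arrays were compared in limma 3.58.1 (R 4.3.3; lmFit, eBayes with intensity trend), two-sided, adjusted over 11677 kept genes at 0.05. An exact permutation of 2 against 2 cannot go below p = 0.333. The fit was tested on simulated data. Arrays limit the precision by their number, 4. Every member is named; from each pathway list the genes 2-fold apart without overlap, or else the 2 with the greatest change. Other genes, such as Dpt, Wls, Axin2 and Nkd2, were named after their values were seen. Members and lists were chosen with earlier results of these data known. Alternatives covered pseudocount, filter, scaling, probe sets, variance trend, replicate block and leaving out arrays. Tcf7, Wisp1, Wisp2 and Kremen2 were unnamed here. Leukocyte, epithelial and Schwann markers were also summed: 641 and 595 against 514 and 672, 393 and 499 against 237 and 150, and 327 and 205 against 262 and 121. Lymphatic markers summed to 1204 and 2336 against 1501 and 2060.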

Additional observations from a re-analysis of the deposited data

How the results depend on the processing

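Among the members, 3 were 2-fold apart without overlap, or 3 to 6 with 1 array left out (6 without Apex replicate 1 and 6 without VEGFD replicate 1). Without VEGFD replicate 2 they were Dkk2, Sfrp2 and Wnt5a, so Sfrp1 was no longer among them, and with no filter Wnt4 joined. Wnt11 joined them with a pseudocount of 1, centred arrays or quantile normalization. Members past the threshold numbered 0, and 0 to 2 with 1 array left out. Over all genes 0 passed, or 0 to 372 with 1 array left out. The replicate number as a block gave 6, none of them members. The labels do not say that numbers pair, and the gap between replicates correlated at r = 0.20 between groups. Genes 2-fold apart numbered 453, 229 with a pseudocount of 64, 226 with the stricter filter, and 442 to 1348 with 1 array left out. They split into 127 higher and 326 lower, or 192 and 239 with arrays centred on their medians, which raised the median change of all genes from -0.035 to 0.088. Pathway genes 2-fold apart numbered 6, 10 with a pseudocount of 1, and 4 each with centred arrays and quantile normalization. They numbered 1 each with a pseudocount of 64, the stricter filter and averaged probe sets. With 1 array left out they numbered 6 to 7.

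Wnt9a changed sign with a pseudocount of 1 (-0.012). With 1 array left out, 12 of 24 members changed sign at least once. Their ranges were -0.70 to 0.75 for Wnt9a, -0.56 to 1.26 for Wnt2, -0.53 to 0.23 for Wnt6, -0.56 to 0.16 for Wnt7b, -0.14 to 0.80 for Dkk3, -0.57 to 0.12 for Fzd1, -0.061 to 0.74 for Fzd2, -0.33 to 0.041 for Fzd3, -0.20 to 0.94 for Fzd4, -1.83 to 0.19 for Fzd6, -0.0013 to 0.50 for Fzd8 and -1.03 to 0.026 for Fzd10. Dkk2, Sfrp1 and Wnt5a kept their sign under every alternative that gave a value. The cause was not tested. Signals near the reference of 30.2 to 38.9 limit the dim ligands.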
